A study of Mus musculus with 24 samples.

Results

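In livers of mice with NASH (nonalcoholic steatohepatitis, in which a fatty liver becomes inflamed and scarred), 41 genes had values in all 16 drug-treated samples that lay outside the values of all 8 vehicle samples on the same side. Of these, 35 were lower in every treated liver and 6 were higher. They were found among 11558 genes with at least 0.5 FPKM (fragments scaled by gene length and library size) in at least 8 of the 24 samples, after rows that share a gene symbol were left out. The lower genes included fibrillar collagens (Col3a1, Col1a2) and proteins that cross-link or protect matrix (Loxl2, Timp1). They also included the membrane-binding proteins Anxa2 and S100a11, the bile acid exporter subunit Slc51b and the apolipoprotein Apoa4. The higher genes included the cytochrome P450 Cyp2c37, the fibrinogen chain Fgb and the oxygen-sensing transcription factor Epas1, of which Cyp2c37 stayed separated under all 3 other scalings tried and Fgb and Epas1 did not.

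The 24 liver samples came from vehicle, vutiglabridin and semaglutide groups of 8 samples each. Vutiglabridin is a synthetic analog of the licorice flavonoid glabridin, which the series title describes as acting on paraoxonase-2 and autophagy, and semaglutide is an agonist of the glucagon-like peptide-1 receptor. The labels give the tissue and the treatment of each sample, and no strain, sex, age, diet, dose or duration, and all 3 groups are described as NASH liver. No healthy liver was analysed here, so the direction of a change relative to a healthy liver was not measured, and the p-values below rest on the spread among these libraries, which may in part be technical.

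In NASH, injured hepatocytes and recruited macrophages stimulate hepatic stellate cells, which lay down collagen-rich scar. Surviving hepatocytes lower the output of enzymes of drug, bile acid and amino acid metabolism, while ductular cells and some hepatocytes raise genes of the cytoskeleton, of membrane repair and of proliferation. Semaglutide lowers food intake and body weight through receptors outside the hepatocyte. Separation of all treated samples from vehicle asks which liver genes moved whichever drug was given. The pooled contrast used further below averages both drugs, so a gene moved by either drug alone can pass it.

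FPKM totals per sample were 318267 to 352578 in vehicle, 344271 to 385601 in vutiglabridin and 328780 to 372405 in semaglutide libraries. Steps between low FPKM values implied approximately 12.0 to 19.9 M (mega) fragments per library in vehicle, 5.98 to 15.2 in vutiglabridin and 9.34 to 12.4 in semaglutide, with the fewest in vutiglabridin replicate 7. All 114344 cells of the semaglutide columns were written with a trailing space and no cell of the other groups was, so a separate handling of these samples cannot be told apart from the drug. Both drugs are compared with the same 8 vehicle samples, so an unusual vehicle sample moves both comparisons together. In bulk liver, fewer cells of a type and less RNA per cell cannot be told apart.

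Separation in every sample was rare in either direction. The 35 lower genes were 0.303% of the genes tested, the 6 higher genes 0.0519%, and both together 0.355%. Because complete separation chose these genes, their differences from vehicle are given below as a description with no test. Of the 35 lower genes, 10 had a treated mean at least 1 log2 unit below vehicle on the log2(FPKM + 1) scale, which understates the change of genes with low values. Among all 11558 genes, 21 were lower by that size. All 16 treated values of 0 of the 41 genes lay below the filter value of 0.5 FPKM, and 1 gene reached it in fewer than 8 treated samples, so it passed mainly through its vehicle values. That gene was Uhrf1, which had vehicle values of 0.57 to 1.29 FPKM and treated values of 0.07 to 0.52 FPKM. The separation of 5 of the 6 higher genes and of 12 of the 35 lower genes depended on the scaling. After rescaling to equal totals (TPM) 1 of the 6 higher and 27 of the 35 lower genes stayed separated, after quantile normalization 1 and 31, and after median centring 4 and 33. Cyp2c37 and 23 lower genes stayed separated under all 3, and Epas1, Fgb, Kng1, Sdc2, Tecr and the lower gene Sparc lost it under both TPM and quantile normalization. Under TPM the lower genes Col16a1, Cpxm1, Entpd2, Ermp1, Nid1, Slamf9 and Smpd3 also lost it, under quantile normalization Galnt10, Mcm2 and Uhrf1, and under median centring Ehd4 and Slamf9, with Fgb and Kng1 among the higher genes.

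**Figure D1:**
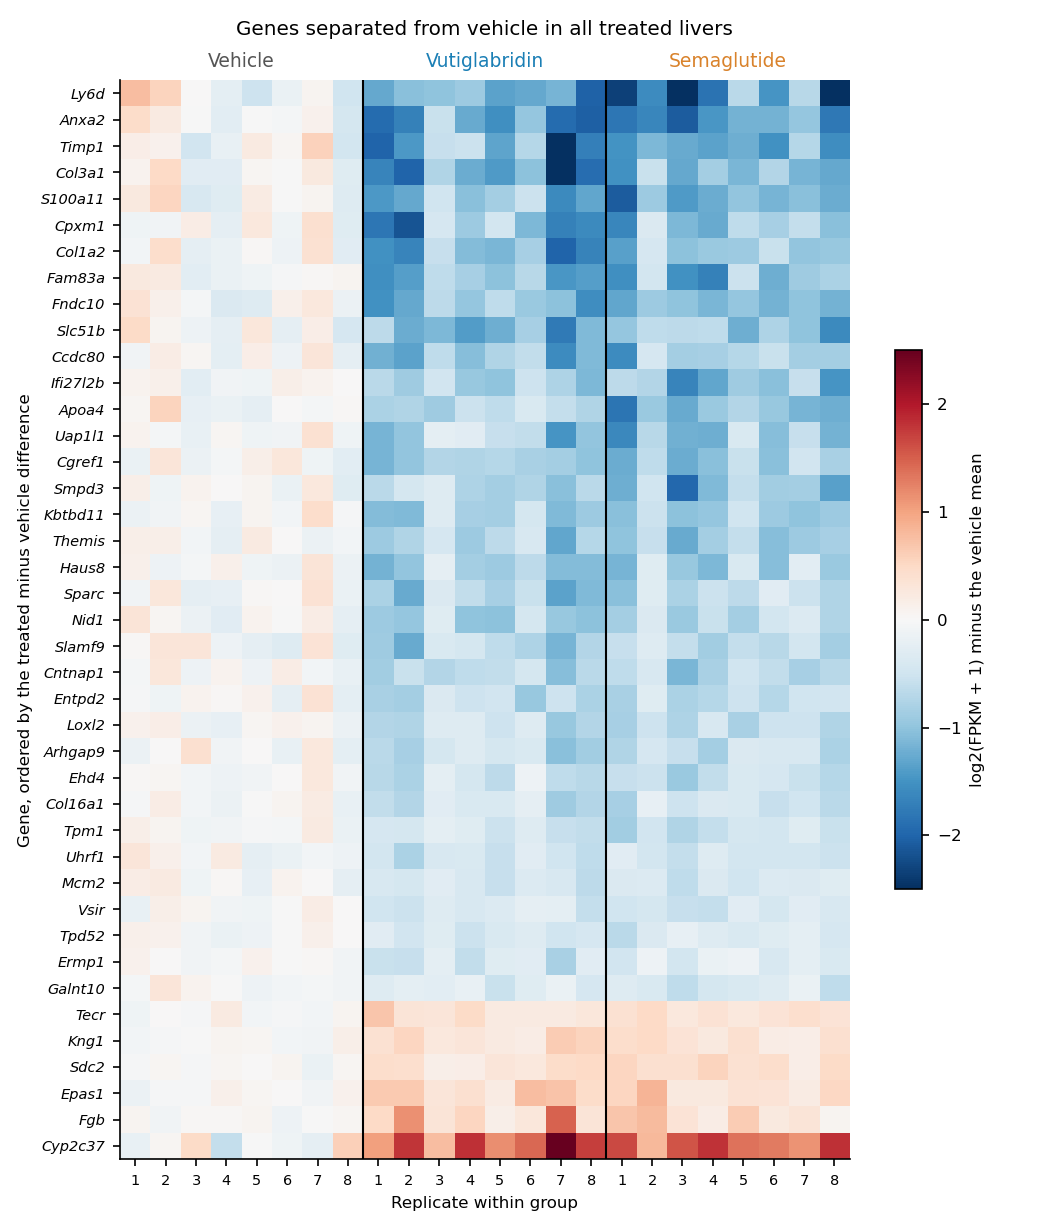
Difference of log2(FPKM + 1) from the vehicle mean in each of the 24 liver samples (columns, by group and replicate number) for the 41 separated genes (rows, ordered by the treated minus vehicle difference). The 35 lower genes are blue in all 16 treated samples and the 6 higher genes are red, with the strongest colours for Ly6d, Anxa2, Timp1 and Cyp2c37. Colours saturate at the ends of the scale.

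The treated livers were not uniform in how far they moved. The mean of log2(FPKM + 1) over the 35 lower genes was 3.08 to 3.45 in vehicle samples (median 3.24), 2.14 to 2.80 in vutiglabridin samples (median 2.40) and 2.192 to 2.702 in semaglutide samples (median 2.46). Over the 6 higher genes it was 6.73 to 7.01 in vehicle, 7.19 to 7.84 in vutiglabridin and 7.24 to 7.55 in semaglutide. A few samples set the edge of the separation. Vehicle replicate 8 held the lowest vehicle value of 14 of the 35 lower genes, replicate 4 of 8 and replicate 3 of 6. Vutiglabridin replicate 3 held the highest treated value in 10 of the 35 and semaglutide replicate 2 in 9. The treated sample nearest to vehicle belonged to the vutiglabridin group for 20 lower and 4 higher genes, and to the semaglutide group for 15 and 2.

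Of the 35 lower genes, 9 encode proteins of the scar matrix or act on it. The grouping of the 41 genes by role was made after their values were seen. Col3a1 (chr1:45311538-45349706, plus strand, GRCm38), which encodes the chain of type III collagen that accumulates early in liver scars, was 21.0 to 37.8 FPKM in vehicle (median 26.8), 3.00 to 15.3 in vutiglabridin (median 8.48) and 8.52 to 17.5 in semaglutide (median 11.3). No treated sample reached the lowest vehicle sample, and the semaglutide samples lay higher within the treated range. The treated mean, taken as the average of both drug means, was 39.4% of the vehicle mean, and the log2 difference was −1.33 ± 0.18 (SE, n = 16 and 8). Col1a2 (chr6:4504814-4541544), a chain of the type I collagen that makes up most mature scar, was 8.72 to 15 FPKM in vehicle (median 10.1), 1.97 to 6.92 in vutiglabridin (median 3.73) and 3.59 to 7.79 in semaglutide (median 5.18). Its treated mean was 43.0% of vehicle, and the highest treated sample fell short of the lowest vehicle sample by less than 1 FPKM.

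Timp1 (chrX:20870166-20874735), an inhibitor of the metalloproteinases that degrade matrix, was 4.30 to 10.1 FPKM in vehicle (median 6.79), 0 to 4.07 in vutiglabridin (median 1.86) and 1.53 to 3.52 in semaglutide (median 2.01). Its treated mean was 32.5% of vehicle, a log2 difference of −1.34 ± 0.21 (SE), and the drug means were 32.9% of vehicle with vutiglabridin and 32.0% with semaglutide. The value listed at 0 was that of vutiglabridin replicate 7, the library with the fewest implied fragments. Cpxm1 (chr2:130390775-130397574), a secreted protein of the carboxypeptidase family, was 5.78 to 9.96 FPKM in vehicle (median 6.81), 0.86 to 5.21 in vutiglabridin (median 2.32) and 1.71 to 5.48 in semaglutide (median 3.39). Ccdc80 (chr16:45093402-45128077), a secreted matrix-associated protein, was 11.4 to 17.2 FPKM in vehicle (median 13.6), 3.97 to 8.67 in vutiglabridin (median 5.99) and 3.98 to 10.03 in semaglutide (median 7.24). These genes had 42.2% and 49.9% of the vehicle mean in treated livers, and in both the groups were apart without overlap, which for Cpxm1 ended under TPM.

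A further 4 of the separated genes act in the matrix. Sparc (chr11:55394500-55423183), a collagen-binding protein, was 33.3 to 49.9 FPKM in vehicle and 14.9 to 31.9 in treated samples. Nid1 (chr13:13437551-13512269), a basement membrane linker, was 7.81 to 12.4 FPKM in vehicle and 4.28 to 7.71 in treated samples. Loxl2 (chr14:69609068-69695834), a lysyl oxidase that cross-links collagen, and Col16a1 (chr4:130047840-130099283), a collagen found beside fibrils, were expressed at low levels, with vehicle medians of 2.14 and 2.05 FPKM. The treated means of these 4 genes were 59.9%, 56.9%, 49.0% and 56.1% of vehicle in that order. Under TPM the groups overlapped for Sparc, Nid1 and Col16a1 and stayed apart for Loxl2.

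The annexin and S100 proteins bind membranes or partner proteins when calcium rises, and are known to be induced in stressed epithelium and in scar. Anxa2 (chr9:69453620-69491795), which binds membrane lipids and plasminogen on the cell surface, was 32.2 to 61.1 FPKM in vehicle (median 43.7), 9.95 to 29.9 in vutiglabridin (median 13.9) and 9.69 to 22.3 in semaglutide (median 14.6). The drug groups overlapped each other and neither reached the vehicle samples, with a treated mean of 35.1% of vehicle and a log2 difference of −1.50 ± 0.16 (SE). S100a11 (chr3:93520488-93526287), a calcium-binding partner of annexins, was 39.8 to 77.1 FPKM in vehicle (median 54.0), 17.0 to 37.4 in vutiglabridin (median 23.2) and 11.8 to 27.7 in semaglutide (median 22.6). Its treated mean was 44.1% of vehicle and its log2 difference −1.16 ± 0.15 (SE). Among related genes that act on the cytoskeleton and on membrane traffic, Tpm1 (chr9:67022590-67049406), the actin-binding tropomyosin, had 68.8% of the vehicle mean. Ehd4 (chr2:120089175-120154606), an endosomal membrane-remodelling ATPase, had 62.9%, and Haus8 (chr8:71248561-71272934), a subunit of the augmin complex that nucleates microtubules, had 50.4%.

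**Figure D2:**
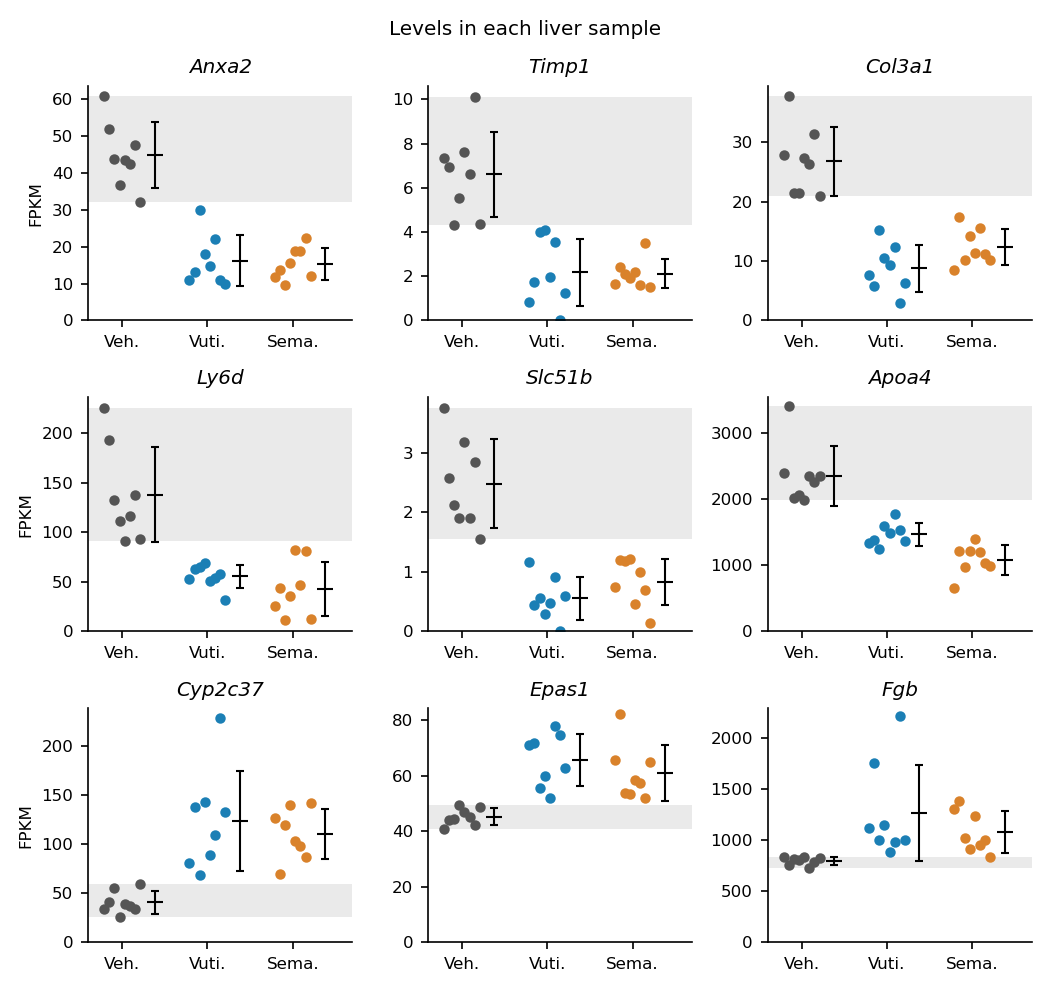
FPKM of 9 separated genes in each of the 24 liver samples (points), with the group mean and SD beside them, for vehicle (Veh.), vutiglabridin (Vuti.) and semaglutide (Sema.); the grey band is the range of the 8 vehicle samples. Every treated point lies outside the band, below it for 6 genes and above it for Cyp2c37, Epas1 and Fgb, where 1 Fgb point in semaglutide lies at the edge of the band.

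The promoters of the separated genes were searched for 9 short motifs. RefSeq promoter windows (250 bases before to 50 bases after the start, GRCm38.p6) were found for 26 of the 41 genes, 3 of them among the higher genes. The letters TGANTCA, the binding motif of AP-1 transcription factors, occurred on either strand in the windows of 6 of the 26 (23.1%), against 8.97% of 27025 genes with a window. These 6 were Anxa2, Cgref1, Entpd2, Fgb, S100a11 and Slc51b. The 250 bases before the start are shown for the 3 of them with the largest differences in the lower set, printed 5′ to 3′ on the gene's strand with the motif in capitals, at chr9:69453433-69453682 for Anxa2 (plus), chr3:93520246-93520495 for S100a11 (plus) and chr9:65422774-65423023 for Slc51b (minus).
Anxa2: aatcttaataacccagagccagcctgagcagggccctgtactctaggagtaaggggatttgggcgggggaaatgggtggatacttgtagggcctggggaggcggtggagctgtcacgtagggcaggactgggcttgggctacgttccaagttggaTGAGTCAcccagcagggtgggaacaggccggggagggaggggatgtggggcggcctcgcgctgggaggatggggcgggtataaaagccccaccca
S100a11: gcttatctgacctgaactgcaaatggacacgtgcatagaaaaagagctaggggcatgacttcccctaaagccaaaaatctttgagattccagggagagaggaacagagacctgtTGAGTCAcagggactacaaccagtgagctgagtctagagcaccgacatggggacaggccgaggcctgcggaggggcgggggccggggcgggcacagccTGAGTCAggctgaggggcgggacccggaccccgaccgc
Slc51b: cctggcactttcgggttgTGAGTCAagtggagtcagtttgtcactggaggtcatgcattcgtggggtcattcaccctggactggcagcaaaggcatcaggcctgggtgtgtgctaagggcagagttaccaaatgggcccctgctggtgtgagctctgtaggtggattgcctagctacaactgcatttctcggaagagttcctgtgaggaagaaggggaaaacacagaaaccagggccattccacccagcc
The motif occurred at 2 places in S100a11 and at 1 in the others, and it began 95 bases before the start in Anxa2, 136 and 38 bases before it in S100a11 and 232 bases before it in Slc51b. Of the other motifs searched, TATAAA was in 2 of the 26 (7.69%, against 15.7% of the 27025 genes) and CCAAT in 12 (46.2% against 41.1%). GGGCGG was in 17 (65.4% against 38.2%), CACGTG in 3 (11.5% against 8.09%) and ACGTG, which CACGTG contains, in 9 (34.6% against 21.8%). TTCNNNGAA was in 2 (7.69% against 9.55%), GGAATT in 0 (0% against 14%) and CATTCC in 12 (46.2% against 16.6%). The 27025 genes were not limited to the 11558 tested. These matches describe letters in the windows, and binding was not measured.

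Genes of bile acid, lipid and sugar-nucleotide metabolism were also among the lower genes. Slc51b (chr9:65412714-65422955), the beta subunit of the basolateral transporter that exports bile acids from cells, was 1.56 to 3.75 FPKM in vehicle (median 2.35), 0 to 1.17 in vutiglabridin (median 0.515) and 0.14 to 1.21 in semaglutide (median 0.87). Its treated mean was 27.9% of vehicle, and the log2 difference of −1.05 ± 0.13 (SE) understates this at so low a level. The value listed at 0 was again that of vutiglabridin replicate 7. Apoa4 (chr9:46240696-46243459), an apolipoprotein of triglyceride-rich particles that is raised in fatty liver, was the most abundant of the 41. It was 1981 to 3406 FPKM in vehicle (median 2299), 1244 to 1779 in vutiglabridin (median 1438) and 649.6 to 1395 in semaglutide (median 1115). The semaglutide samples were shifted below the vutiglabridin samples, with 46.1% of the vehicle mean against 62.4%.

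Smpd3 (chr8:106252548-106337988), a neutral sphingomyelinase that makes ceramide, was 4.71 to 7.45 FPKM in vehicle (median 6.27), 2.43 to 4.68 in vutiglabridin (median 3.30) and 0.82 to 4.03 in semaglutide (median 2.59). Uap1l1 (chr2:25359889-25365682), related to the enzyme that makes UDP-N-acetylglucosamine, was 12.0 to 18.4 FPKM in vehicle (median 13.2), 4.36 to 11.5 in vutiglabridin (median 7.62) and 3.87 to 10.5 in semaglutide (median 5.85). Their treated means were 48.9% and 52.6% of vehicle, and for both the highest treated sample lay just under the lowest vehicle sample. Entpd2 (chr2:25395874-25401321), which hydrolyses extracellular ATP and in liver marks portal fibroblasts, had 56.3% of the vehicle mean, Galnt10 (chr11:57645442-57787514), which starts O-linked glycans, 71.9%, and Ermp1 (chr19:29608214-29648415), a metallopeptidase of the endoplasmic reticulum, 74.9%.

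Surface proteins and genes of immune cells made up another group. Ly6d (chr15:74762056-74763620), a small lipid-anchored surface protein of epithelia and of B cell precursors, was 91.5 to 226 FPKM in vehicle (median 124.5), 31.5 to 69.1 in vutiglabridin (median 55.6) and 12.0 to 81.9 in semaglutide (median 39.7). It had the largest log2 difference of the 41, −1.58 ± 0.27 (SE), and its semaglutide samples were the more spread. Ifi27l2b (chr12:103450898-103457223), an interferon-inducible gene with a close neighbouring copy that may share its reads, was 50.4 to 67.3 FPKM in vehicle (median 63.5), 27.6 to 43.3 in vutiglabridin (median 34.1) and 18.7 to 40.6 in semaglutide (median 30.9). Slamf9 (chr1:172475358-172478575), a receptor of myeloid cells, had 49.5% of the vehicle mean, and Vsir (chr10:60346851-60372684), the checkpoint receptor VISTA, 69.0%. Themis (chr10:28668360-28883818), a signalling protein of T cells, had 32.4%, with a vehicle median of 1.66 FPKM, and Arhgap9 (chr10:127321964-127329943), a signalling protein of blood cells, had 51.2%.

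Proliferation genes and genes with less known roles in liver completed the lower set. Uhrf1 (chr17:56303321-56323486), which keeps DNA methylation through replication, had 38.9% of the vehicle mean, Mcm2 (chr6:88883474-88898780), a subunit of the replicative helicase, 58.4%, and Cgref1 (chr5:30933143-30945591), a secreted regulator of growth, 44.7%. Cgref1 was 3.64 to 5.79 FPKM in vehicle (median 4.23), 1.48 to 2.39 in vutiglabridin (median 2.13) and 1.34 to 2.96 in semaglutide (median 1.94). Fam83a (chr15:57985419-58011009), a scaffold of kinase signalling, was 7.95 to 11.7 FPKM in vehicle (median 9.69), 2.7 to 5.92 in vutiglabridin (median 3.70) and 2.33 to 6.82 in semaglutide (median 4.18). Fndc10 (chr4:155694342-155696481), a membrane protein with a fibronectin domain, was 1.57 to 3.24 FPKM in vehicle (median 2.40), 0.13 to 1.12 in vutiglabridin (median 0.66) and 0.34 to 0.75 in semaglutide (median 0.575). It had the lowest share of the vehicle mean of the 41, 25.0%. Kbtbd11 (chr8:15011025-15033333) had 32.7%, Cntnap1 (chr11:101170523-101190724), a neuronal adhesion protein, 47.4%, and Tpd52 (chr3:8925593-9004723), a protein of vesicle traffic, 71.5%.

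The 6 higher genes were mainly genes that hepatocytes express abundantly. Cyp2c37 (chr19:39992424-40012243), a monooxygenase that oxidises drugs and fatty acids, from a family of near-identical genes, was 25.6 to 59.6 FPKM in vehicle (median 37.8), 68.3 to 228 in vutiglabridin (median 120.5) and 69.4 to 141 in semaglutide (median 111). Its treated mean was 288% of vehicle, a log2 difference of 1.48 ± 0.17 (SE), and the lowest samples of both drugs lay at nearly the same level above the vehicle range. The other 5 differed less, with treated means of 128% to 147% of vehicle. Fgb (chr3:83040141-83049863), the beta chain of fibrinogen, was 727 to 838 FPKM in vehicle (median 813), 886 to 2218 in vutiglabridin (median 1064) and 838 to 1386 in semaglutide (median 1007).

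Epas1 (chr17:86753700-86833410), which encodes HIF-2α, the transcription factor stabilised at low oxygen, was 40.7 to 49.3 FPKM in vehicle (median 44.8), 51.8 to 77.8 in vutiglabridin (median 66.8) and 52.1 to 82.2 in semaglutide (median 57.8). Sdc2 (chr15:32920723-33034935), a heparan sulfate proteoglycan of the hepatocyte surface, was 37.5 to 44.5 FPKM in vehicle (median 42.9), 46.5 to 60.2 in vutiglabridin (median 54.4) and 47.2 to 62.5 in semaglutide (median 56.8). Vehicle samples were tightly grouped in both genes, and both drug groups began just above them. Kng1 (chr16:23057865-23082078), the kininogen precursor of bradykinin, which has a related copy in mouse, was 441 to 519 FPKM in vehicle (median 466), 535 to 734 in vutiglabridin (median 597) and 525 to 665 in semaglutide (median 606). Tecr (chr8:83571698-83607971), the reductase that ends each cycle of very long chain fatty acid synthesis, was 68.4 to 85.3 FPKM in vehicle (median 71.4), 85.4 to 119 in vutiglabridin (median 90.1) and 88.0 to 103 in semaglutide (median 94.0).

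The edges of the rule were narrow. Fgb was the closest gene inside it on the higher side, with 838.08 FPKM in the lowest treated sample and 837.86 in the highest vehicle sample. Fabp5, a fatty acid-binding protein of macrophages and epithelia, lay just outside because its lowest treated and highest vehicle values were both 3.98 FPKM. On the lower side Ehd4 was the closest inside, with 5.38 FPKM in the highest treated and 5.40 in the lowest vehicle sample, and Ptgds, a prostaglandin synthase, was the closest outside, with 0.59 FPKM in both. A further 29 higher genes (0.251%) and 41 lower genes (0.355%) had 15 of 16 treated values beyond the vehicle range on that side. The remaining value came from vutiglabridin in 14 of the higher and 27 of the lower of these, and from semaglutide in 15 and 14. The 2 with the largest differences on each side were picked after their values were seen. On the lower side, Sdcbp2, a scaffold protein of membrane signalling, had 10.1 ± 2.47 FPKM in vehicle, 3.46 ± 2.39 in vutiglabridin and 1.48 ± 0.970 in semaglutide (SD, n = 8 each), with vutiglabridin replicate 3 inside the vehicle range. Its log2 difference of −1.84 exceeded that of each of the 41 genes. Col1a1, the main chain of type I collagen, had 20.1 ± 5.06, 6.31 ± 3.39 and 11.02 ± 3.25 FPKM in the same order, with semaglutide replicate 2 inside the range. On the higher side were Cyp2c29, described with drug metabolism, where semaglutide replicate 2 lay inside the range, and Cyp2c54, another gene of that family. Cyp2c54 had 19.7 ± 7.75, 91.3 ± 23.6 and 36.1 ± 14.6 FPKM in the same order. Its semaglutide replicate 7, at 6.12 FPKM, lay below the lowest vehicle sample (8.42), on the opposite side to the other treated samples.

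The difference between the drugs is a separate contrast from the one that chose the 41 genes, but the rule used the same treated values and the fit takes its spread from all 3 groups, so the counts over the 41 are a description. Of the 41 genes 1 passed, Apoa4 (2.44%), against 24.4% of all genes tested (12.6% higher and 11.9% lower with semaglutide than with vutiglabridin; limma, moderated 2-sided test, Benjamini-Hochberg adjusted p under 0.05). A gene on which either drug had little effect could not meet the rule, so the low share follows in part from how the genes were chosen. The median size of the difference between the drugs was 0.10 log2 units for the 41 genes and 0.12 for all genes. Vutiglabridin livers lay further from vehicle in 22 of the 41 genes and semaglutide livers in 19. Over all 11558 genes tested these numbers were 5189 and 6369.

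Apoa4 was lower with semaglutide than with vutiglabridin by a log2 difference of −0.46 ± 0.13 (SE; 95% interval −0.72 to −0.20; limma adjusted p = 0.0088). Under quantile normalization, which gives every library the same distribution of values, that difference was −0.19 with an adjusted p of 0.339 (limma), and 0.00343 to 0.0368 under the other 34 alternatives. For Ly6d the difference was −0.64 (interval −1.28 to 0.00; limma adjusted p = 0.134) and for Smpd3 −0.36 (−0.67 to −0.05; 0.0781). In the other direction Col3a1 was 0.53 higher with semaglutide (0.11 to 0.95; limma adjusted p = 0.0604), Col1a2 0.42 (0.07 to 0.76; 0.0684) and Cpxm1 0.34 (−0.10 to 0.77; 0.254). These 5 differences did not pass, and their intervals reached 0.95 log2 units in Col3a1 and −1.28 in Ly6d. For Anxa2 the difference was −0.02 (−0.41 to 0.36), for Timp1 0.12 (−0.38 to 0.63) and for Cyp2c37 −0.10 (−0.51 to 0.31).

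**Figure D3:**
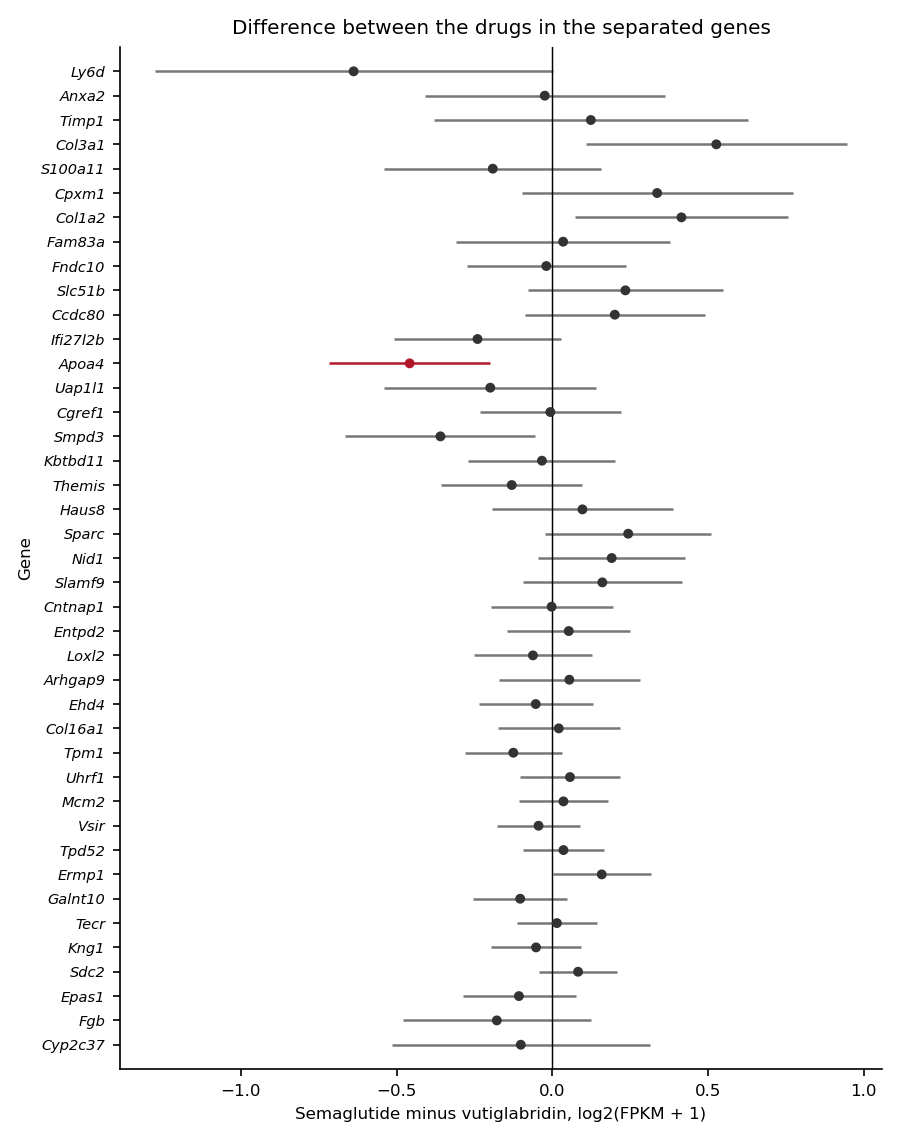
Semaglutide minus vutiglabridin difference in log2(FPKM + 1) for each of the 41 separated genes, with its 95% interval from the limma fit (bars, not adjusted for the number of genes). Apoa4, in red, at −0.46, was the gene that passed the adjusted threshold.

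The 41 genes shared few other properties. The median exon length was 4259 bases for the lower genes, 3388 for the higher genes and 4335 for all genes tested. The higher genes had a median vehicle mean of 59.3 FPKM and the lower genes 6.00, against 4.76 for all genes. The coefficient of variation among vehicle samples had a median of 6.24% in the higher genes, 17.0% in the lower genes and 12.5% in all genes, and in treated groups the lower genes varied more (30.0% with vutiglabridin and 24.8% with semaglutide, against 15.2% and 13.6% for all genes). The rule used the range of the same vehicle values, and a small rise can separate only where that range is narrow. The low variation of the higher genes thus follows in part from how they were chosen. Chromosomes 2, 8 and 9 each held 4 of the 41 (9.76%), with 7.76%, 5.56% and 5.63% of the genes tested, and the 4 on chromosome 9 were Anxa2, Apoa4, Slc51b and Tpm1.

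The wider comparison of treated with vehicle livers covers genes of the same and other pathways. In the fit over all genes, with equal weight for each drug, 1312 genes were higher (11.4%) and 1221 lower (10.6%) in treated livers, 21.9% in all (limma, adjusted p under 0.05). These counts and those of the lists are for the mean of both drugs and include genes that moved with either drug alone. After TPM rescaling the split was 518 higher and 2716 lower, 16% higher against 51.8% with FPKM as deposited. The median log2 difference of all genes was 0.00 as deposited and −0.09 under TPM. Of the 41 genes, 14 belonged to one of the 39 gene lists used here (12 lower and 2 higher), counts below include them, and the other 27 belonged to none. Differences and p-values for list genes are from this fit.

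Scar matrix genes were lower as a group. Of 41 tested genes of the scar matrix and its processing, 33 fell, 1 rose and 7 did not pass, with a median of −0.48 (−0.59 with vutiglabridin and −0.38 with semaglutide), and 6 of them were among the separated genes. Col5a2, a chain of type V collagen that starts fibrils, fell from 2.22 ± 0.525 FPKM in vehicle to 1.08 ± 0.238 and 1.17 ± 0.267 with vutiglabridin and semaglutide (SD, n = 8 each; limma adjusted p = 4.08e-05), with 7 of 8 values of each drug outside the vehicle range. Of 19 markers of hepatic stellate cells, 7 fell and 12 did not pass (median −0.27), and the summed level of the 19 was 260.6 to 407 FPKM in vehicle, 201 to 307 in vutiglabridin and 198 to 267 in semaglutide. Acta2, the smooth muscle actin of activated stellate cells, fell from 3.93 ± 1.41 to 2.55 ± 1.31 and 1.53 ± 0.420 FPKM (SD, n = 8 each; limma adjusted p = 0.00195), and Dcn, the proteoglycan decorin, by 0.29 on the log2 scale (0.00474). Each drug was also set against vehicle in the same fit. Acta2 and Dcn passed with semaglutide (limma adjusted p = 0.000391 and 0.00106) and not with vutiglabridin (0.0604 and 0.11). Their difference between the drugs did not pass (0.0754 and 0.0892). The part of fewer stellate cells in the lower collagen values was not tested.

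Markers of recruited macrophages had the lowest median of the 36 lists with at least 4 tested genes. Of 23 tested markers of recruited and lipid-associated macrophages, 20 fell, 1 rose and 2 did not pass, with a median of −0.58 (−0.69 and −0.44 with vutiglabridin and semaglutide) and 0 of them among the separated genes. Lgals3, the galectin of activated macrophages, fell from 19.6 ± 7.11 FPKM to 9.49 ± 3.48 and 8.25 ± 2.51 (SD, n = 8 each; limma adjusted p = 0.000211). Ccr2, which draws monocytes into tissue, fell by 0.61 on the log2 scale (limma adjusted p = 7.76e-05) and differed between the drugs, lying higher with semaglutide by 0.48 (0.00161). The member that rose was Fabp5, by 1.13 (limma adjusted p = 0.000685). The summed level of these markers was 751 to 1266 FPKM in vehicle, 426 to 766 in vutiglabridin and 519 to 840 in semaglutide, and Slamf9 and Vsir, which myeloid cells express, lay lower in the same samples. The part of macrophage numbers in any of the 41 genes was not tested.

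**Figure D4:**
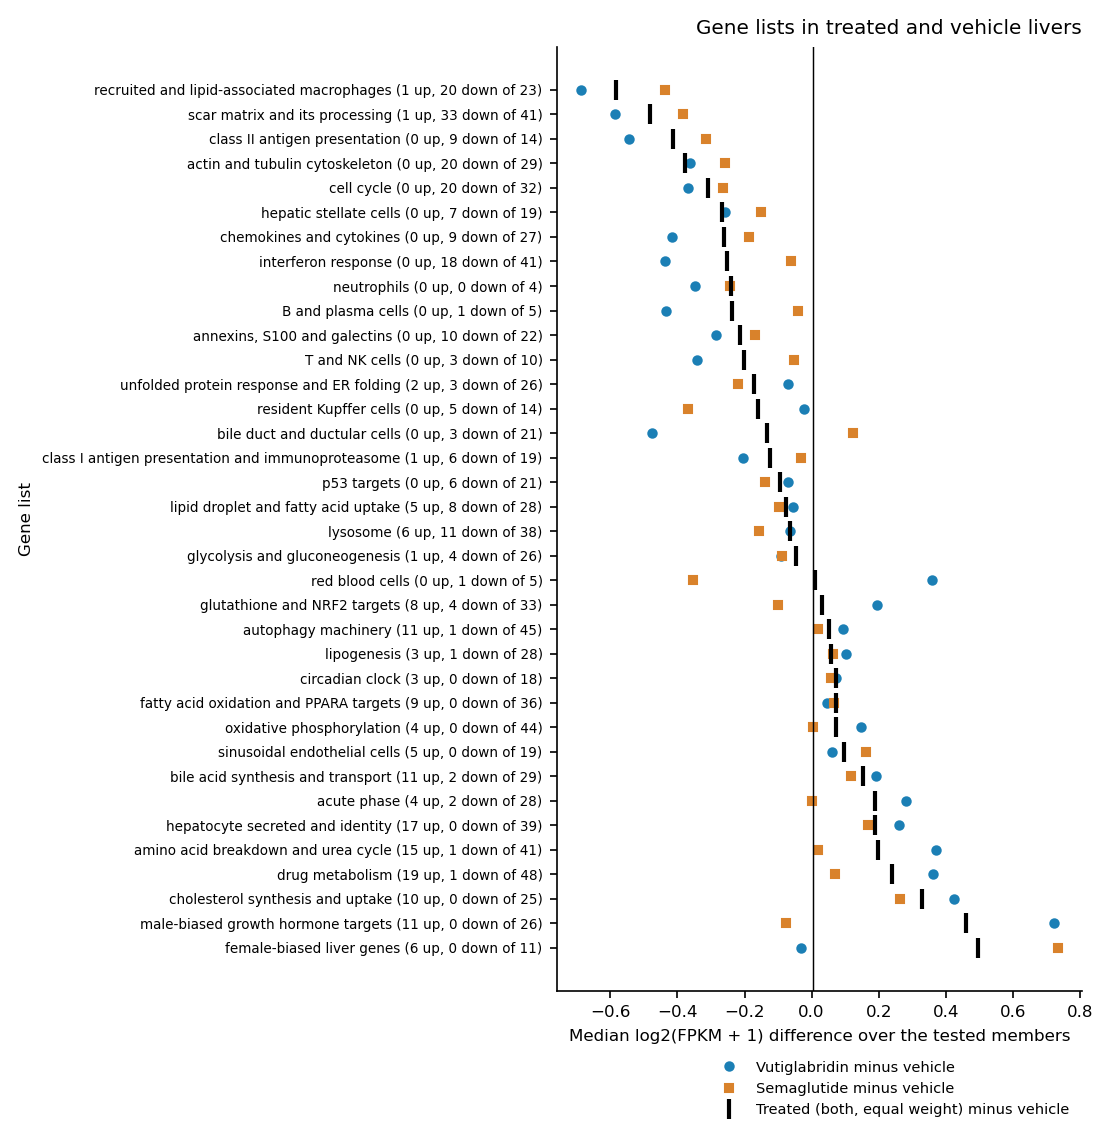
Median log2(FPKM + 1) difference from vehicle over the tested genes of each of 36 gene lists with at least 4 tested genes, for vutiglabridin (circles), semaglutide (squares) and both drugs with equal weight (black bars); both drugs share the vehicle samples. Counts give the genes that were higher (up) or lower (down) at a limma adjusted p under 0.05, and the macrophage list lies lowest at −0.58 with 20 of 23 down.

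Other immune lists had fewer genes that passed. Of 14 tested resident Kupffer cell markers 5 fell and 9 did not pass (median −0.16). The median was −0.02 with vutiglabridin and −0.37 with semaglutide, and 0 of the 14 passed for a difference between the drugs. Those that fell included the complement genes C1qa, C1qb and C1qc, by 0.56, 0.63 and 0.58 on the log2 scale (limma adjusted p = 0.00671, 0.00357 and 0.00475). Class II antigen presentation genes fell in 9 of 14 (median −0.41), with H2-DMb1, which helps to load peptides, at 8.95 ± 1.98 FPKM in vehicle and 4.23 ± 1.19 and 5.27 ± 0.750 in treated livers (SD, n = 8 each; limma adjusted p = 2.76e-05). Interferon response genes fell in 18 of 41 (median −0.25), with medians of −0.44 for vutiglabridin and −0.06 for semaglutide, and 24 of the 41 differed between the drugs. Usp18, a brake on interferon signalling, was one of these, while Oas2, an antiviral enzyme, changed by −0.59 with either drug. In the class I list 6 of 19 fell and 1 rose (median −0.12), and Ubd, a cytokine-induced ubiquitin-like protein, fell from 29.3 ± 7.11 FPKM to 8.30 ± 3.93 and 12.9 ± 6.69 (SD, n = 8 each; limma adjusted p = 9.32e-05). Chemokine and cytokine genes fell in 9 of 27 (median −0.26), T and NK cell markers in 3 of 10 (median −0.20), B and plasma cell markers in 1 of 5 (median −0.24) and neutrophil markers in 0 of 4 (median −0.24), of which 2, Csf3r and Lcn2, had an unadjusted limma p under 0.05.

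Genes of the cytoskeleton, of the annexin, S100 and galectin families and of the cell cycle were also lower. Of 29 actin and tubulin genes 20 fell and 9 did not pass (median −0.38), among them Tmsb4x, the actin-sequestering thymosin, from 208 ± 50.8 FPKM to 135 ± 30.6 and 138 ± 20.3 (SD, n = 8 each; limma adjusted p = 0.00085). Of 22 annexins, S100 proteins and galectins 10 fell and 12 did not pass (median −0.21), and Anxa5 fell by 0.67 on the log2 scale, with 7 vutiglabridin and 8 semaglutide values outside the vehicle range (limma adjusted p = 6.83e-05). Of 32 cell cycle genes 20 fell and 12 did not pass (median −0.31), including Mcm4, by 0.46 (7.59e-05), and Cdk1, the kinase of entry into mitosis, by 0.40 (0.000131). Cdk1 was 0.60 to 1.15 FPKM in vehicle and 0.10 to 0.72 in treated samples (median 0.395). Like Uhrf1, it passed the filter mainly through its vehicle values. The summed level of the cell cycle genes overlapped between groups, with 122 to 154 FPKM in vehicle, 79.5 to 124 in vutiglabridin and 106 to 152 in semaglutide.

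Ductular markers moved differently under each drug. Of 21 tested markers of bile duct and ductular cells 3 fell and 18 did not pass, the medians were −0.48 with vutiglabridin and 0.12 with semaglutide, and 12 of the 21 differed between the drugs. Krt8 and Krt18, keratins that hepatocytes share with ducts, fell from 271 ± 31.9 to 188 ± 43.8 and 150 ± 37.6 FPKM and from 289 ± 42.3 to 208 ± 62.6 and 193 ± 49.0 FPKM (SD, n = 8 each; limma adjusted p = 0.000208 and 0.00384). Of 19 sinusoidal endothelial markers 5 rose and 14 did not pass (median 0.10), and Clec4g rose by 0.26 on the log2 scale (0.00372).

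Genes of hepatocyte functions rose more often than they fell in treated livers. Of 48 drug metabolism genes 19 rose, 1 fell and 28 did not pass (median 0.24, with 0.36 for vutiglabridin and 0.07 for semaglutide), and 32 of the 48 differed between the drugs. Cyp2c29, from the same gene family as Cyp2c37, rose from 108 ± 24.03 FPKM to 473 ± 126 and 205 ± 50.4 (SD, n = 8 each; limma adjusted p = 4.04e-07). Cyp2c29 was lower with semaglutide than with vutiglabridin by 1.19 log2 units (limma adjusted p = 1.16e-05). The carboxylesterase Ces1c rose from 721 ± 62.5 to 1017 ± 167 and 1107 ± 120 FPKM (limma adjusted p = 5.05e-05). Genes that hepatocytes secrete or that mark them rose in 17 of 39 and fell in 0 (median 0.19), among them Apoh, from 1050 ± 83.1 to 1378 ± 103 and 1294 ± 111 FPKM (0.000212). Of 28 acute phase genes 4 rose, 2 fell and 22 did not pass, where 11.4% of all genes tested rose and 10.6% fell. Their median was 0.19, with 0.28 for vutiglabridin and 0.002 for semaglutide. Fgb and Fgg, another chain of fibrinogen, were among those that were higher.

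Bile acid and sterol genes were among those that rose. Of 29 bile acid genes 11 rose, 2 fell and 16 did not pass (median 0.15). Slc10a1, for uptake at the blood side, rose by 0.90 on the log2 scale (limma adjusted p = 1.16e-05), and Slc51b, for export at the same side, was one of the separated lower genes. Cyp27a1, which oxidises the cholesterol side chain, rose from 214 ± 22.3 to 305 ± 26.5 and 249.5 ± 18.8 FPKM (SD, n = 8 each; limma adjusted p = 0.000157), and Klb, the co-receptor of fibroblast growth factors that control bile acid synthesis, by 0.65 (0.000342). Of 25 genes of cholesterol synthesis and uptake 10 rose and 15 did not pass (median 0.33), among them Tm7sf2, a sterol reductase, from 9.55 ± 1.33 to 21.3 ± 6.5 and 15.4 ± 3.62 FPKM (4.63e-05). Amino acid and urea cycle genes rose in 15 of 41, fell in 1 and did not pass in 25 (median 0.20). Their median was 0.37 with vutiglabridin and 0.02 with semaglutide, and 29 of the 41 differed between the drugs. Among those that rose was Agxt, which removes glyoxylate, by 0.53 (0.000212).

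Sex-biased liver genes went apart with the drug. The male-biased list rose in 11 of 26 with a median of 0.72 for vutiglabridin and −0.08 for semaglutide, and the female-biased list rose in 6 of 11 with −0.03 and 0.74, and 19 and 8 of their genes differed between the drugs. Abcd2, a peroxisomal fatty acid transporter of the female-biased list, had 4.73 ± 0.802 FPKM in vehicle, 4.20 ± 1.11 with vutiglabridin and 11.9 ± 3.25 with semaglutide (SD, n = 8 each).

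With both drugs pooled, the remaining metabolic lists had medians close to that of all genes. Lipogenesis genes rose in 3 and fell in 1 of 28 (median 0.06), lipid droplet and fatty acid uptake genes rose in 5 and fell in 8 of 28 (−0.08), and fatty acid oxidation genes rose in 9 of 36 (0.07). Within these, Acacb, which makes the malonyl-CoA that limits fatty acid oxidation, rose from 20.8 ± 6.67 to 37.8 ± 12.1 and 34.7 ± 11.7 FPKM (SD, n = 8 each; limma adjusted p = 0.00294). Vldlr, a lipoprotein receptor, rose by 0.48 on the log2 scale (1.98e-05) and lay higher with semaglutide than with vutiglabridin by 0.50 (2.81e-05). Glutathione and NRF2 target genes rose in 8 and fell in 4 of 33 (median 0.03). Their median was 0.195 with vutiglabridin and −0.099 with semaglutide, and 19 of the 33 differed between the drugs. Oxidative phosphorylation genes rose in 4 of 44 (0.07) and clock genes in 3 of 18 (0.07). Glycolysis and gluconeogenesis genes rose in 1 and fell in 4 of 26 (−0.05), with Hk2, the hexokinase of proliferating and injured cells, at 2.86 ± 0.481 FPKM in vehicle and 1.44 ± 0.618 and 1.11 ± 0.442 in treated livers (limma adjusted p = 5.05e-05). The medians of the lipogenesis, fatty acid oxidation, glutathione, oxidative phosphorylation and clock lists were below 0 under TPM.

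Autophagy and the paraoxonases are the subject of the series title. In the autophagy list 11 of 45 genes rose and 1 fell, while 33 missed the threshold, with a median of 0.05 that was −0.05 under TPM, and 0 of them were among the separated genes. Ulk2, a kinase that starts autophagy, rose from 11.3 ± 0.993 FPKM to 14.1 ± 1.81 and 14.5 ± 0.864 (SD, n = 8 each; limma adjusted p = 0.000546), and Atg2b, a lipid transfer protein of the growing autophagosome, by 0.26 on the log2 scale (0.00204). Rb1cc1, a scaffold of the same kinase complex, was 2.56 ± 0.416, 2.78 ± 0.496 and 4.40 ± 0.408 FPKM in vehicle, vutiglabridin and semaglutide, and differed between the drugs by 0.52 (limma adjusted p = 4.84e-05). Lysosome genes rose in 6 and fell in 11 of 38 (median −0.07), with Gaa, the acid glucosidase that breaks down glycogen, higher by 0.39 (0.000132). Pon2, which encodes paraoxonase-2, was 8.45 ± 0.558 FPKM in vehicle, 7.95 ± 0.470 with vutiglabridin and 8.90 ± 0.942 with semaglutide, with a treated difference of −0.01 (95% interval −0.11 to 0.09; limma adjusted p = 0.938). Pon1 rose from 192 ± 19.3 to 244.5 ± 24.5 and 220.3 ± 27.5 FPKM (SD, n = 8 each; limma adjusted p = 0.00561). Pon3 was 17.9 ± 1.70, 18.9 ± 1.91 and 22.5 ± 1.51 FPKM (limma adjusted p = 0.00983, and 0.201 under TPM) and lay higher with semaglutide than with vutiglabridin by 0.24 (0.00636).

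Stress lists and markers of other tissues were also counted. Of 21 p53 target genes 6 fell (median −0.10), where 10.6% of all genes tested fell, and 7 of the 21 differed between the drugs. Of 26 genes of the unfolded protein response 2 rose and 3 fell (median −0.17), with Atf6, a sensor of that response, higher by 0.24 on the log2 scale (limma adjusted p = 0.00124). Of 5 red blood cell genes 1 fell, with a median of 0.01 that was 0.36 for vutiglabridin and −0.36 for semaglutide. Few markers of adipocytes (2 tested), skeletal muscle (1) and pancreatic acinar cells (1) passed the filter, 1, 0 and 1 of which fell. The medians were −0.87, −0.06 and −0.34, and their summed levels were at most 28.0, 1.39 and 6.86 FPKM in any sample. For the adipocyte markers the median was −0.35 with vutiglabridin and −1.39 with semaglutide.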

How the data were processed

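The authors deposited 1 table of FPKM per gene and sample. The submitters' processing notes name HISAT2, StringTie and DESeq2 without versions or roles. How each was used, and against which genome, was not given in the sources used here. Libraries were stranded mRNA libraries per the labels' protocols, and whether the quantification used the strand is not stated. All 14293 gene identifiers and symbols matched GENCODE M21 on GRCm38, from which coordinates were taken, and 6 rows that share 3 symbols were left out.

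Values were analysed as log2(FPKM + 1). limma 3.58.1 in R 4.3.3 (moderated 2-sided test, trend in the prior variance) took the 24 samples as 3 groups and gave the treated contrast with equal weight for each drug and the contrast between the drugs, adjusted by the Benjamini-Hochberg method over 11558 genes (threshold 0.05). The procedure was tested on simulated data. No counts were used. FPKM divides by the fragments of a library, so abundant genes shift all others, and near-identical genes (Cyp2c, Mup, Ifi27l2, Kng, Serpina1 and Orm families) are uncertain singly. The highest correlation between 2 libraries was 0.994 and 0 pairs were identical.

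The separated genes and the gene lists were chosen with earlier results of these data known. Full values are given for the 6 higher and the 16 lowest separated genes with a group mean of at least 1 FPKM, and lists are illustrated by up to 4 genes with the lowest p. Alternatives were pseudocounts, filters, TPM, quantile and median scaling, sample weights, a robust spread, 1 treated group, a replicate block and each sample left out.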

Additional observations from a re-analysis of the deposited data

Results flagged for a closer look

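Outlying samples were sought on the log2(FPKM + 1) scale in 123 sets (each of the 41 separated genes in each group of 8 samples). In 9 sets the distance of the highest or lowest sample to the next took a share of the range above Dixon's critical value for 8 samples. Chance flags about 1 in 20. The values below are in FPKM, where the shares differ and some are smaller. Vehicle replicate 7 was the lowest vehicle sample for Sdc2, at 37.52 FPKM with the next at 41.11, and the highest for Ehd4, at 7.42 with the next at 6.24, and for Kbtbd11, at 2.85 with the next at 2.01. Vehicle replicate 2 was the highest for Apoa4, at 3405.7 FPKM with the next at 2393.47. Semaglutide replicate 1 was the lowest semaglutide sample for S100a11, at 11.83 FPKM with the next at 19.28, for Apoa4, at 649.6 with the next at 973.63, and for Ccdc80, at 3.98 with the next at 7.17. Semaglutide replicate 7 was the lowest for Sdc2, at 47.19 FPKM with the next at 55.46. Vutiglabridin replicate 8 was the lowest for Ly6d, at 31.5 FPKM with the next at 50.94.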

How the results depend on the processing

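Leaving out a sample cannot end a separation and can add to it, so those counts could only stay or rise. They were 6 to 18 higher and 35 to 52 lower, with the most higher genes without vehicle replicate 4 (18), semaglutide replicate 7 (14), vutiglabridin replicate 3 (13) and vehicle replicate 8 (12). Under TPM 3 genes were separated on the higher and 57 on the lower side, and the limma calls were 518 higher and 2716 lower. With the 16 treated samples as 1 group the calls were 814 higher, and without single samples 1023 to 1516 higher and 954 to 1356 lower. Separated genes that differed between the drugs numbered 5 under TPM (Apoa4, Col1a2, Col3a1, Ermp1 and Sdc2), 2 with sample weights (Apoa4 and Smpd3) and 1 to 3 without single samples. They were 3 without vutiglabridin replicate 3, vutiglabridin replicate 6, semaglutide replicate 1 or semaglutide replicate 5 and 2 without semaglutide replicate 2. Under quantile normalization the 1 gene was Sdc2 (log2 difference 0.18, limma adjusted p = 0.0331) in place of Apoa4.

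List medians changed sign under TPM for glutathione and NRF2 targets (−0.074), lipogenesis (−0.045), fatty acid oxidation (−0.032), oxidative phosphorylation (−0.032), autophagy (−0.048), clock (−0.018) and red blood cell genes (−0.092). Under quantile normalization they did so for glutathione (−0.004), lipogenesis (−0.009), fatty acid oxidation (−0.014), oxidative phosphorylation (−0.011) and red blood cells (−0.027). Without single samples the red blood cell median was −0.15 to 0.21 and the lipogenesis median −0.009 to 0.11, below 0 without vehicle replicate 7. The cause of these shifts was not tested.

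With the replicate block the calls were 1282 higher, 1185 lower and 1 separated gene that differed between the drugs, Apoa4, and no other call of a count changed. Over 24 same-numbered pairs the correlation of deviations from the group means was −0.247 to 0.286, and 11 pairs exceeded 0.1. The median was −0.016, against −0.012 for pairs with different numbers. In 8 of 48 comparisons of a sample with another group, the best correlation was with its own number. These values show no clear pairing by number, and a weak pairing could be missed.

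Of 5994 combinations of a named gene and an alternative, calls were lost in 164, gained in 2 and turned in direction in 0. FPKM gives no counting error, so zeros and low values such as those of Timp1, Slc51b, Fndc10 and Uhrf1 carry an unknown error that is largest in vutiglabridin replicate 7.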
